A study of Mus musculus with 4 samples.

Results

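The genes of V(D)J recombination were followed here in bulk RNA-seq of mouse thymocytes that carry both CD4 and CD8a (double-positive, DP). The set is made of 10 genes named by function, out of 35976 gene symbols in the count tables: the recombinase genes Rag1 and Rag2, the terminal transferase gene Dntt, and the end-joining genes Xrcc4, Xrcc5, Xrcc6, Lig4, Dclre1c, Prkdc and Nhej1. All 10 had a row and all 10 passed the filter on low counts, which left 20389 genes. DP cells had been purified by flow cytometry as CD24+TCRb-CD4+CD8a+ from the thymus of Cxxc1 +/+ :Lck-cre mice (control, 2 libraries) and of Cxxc1 F/F :Lck-cre mice (KO, 2 libraries). Both genotypes carried Lck-cre, a Cre transgene under a promoter active in T-lineage cells, and differed in the floxed Cxxc1 alleles. Cxxc1 encodes a protein that binds unmethylated CpG DNA and is a subunit of SETD1, a complex that places methyl groups on lysine 4 of histone H3. The labels give no age, and they do not state whether the 2 libraries of a genotype came from different mice, so p-values measure the spread between these libraries, which may be technical.

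V(D)J recombination joins the gene segments of antigen receptors. RAG1 and RAG2 together cut DNA beside the segments, RAG1 holding the catalytic site and RAG2 a plant homeodomain finger that reads trimethylated lysine 4 of histone H3. The broken ends are then joined by the classical end-joining pathway, in which Ku (encoded by Xrcc6 and Xrcc5) binds the ends, the kinase DNA-PKcs (Prkdc) activates the nuclease Artemis (Dclre1c) to open the sealed coding ends, and ligase IV (Lig4) with XRCC4 and XLF (Nhej1) seals the joint. Terminal transferase adds untemplated nucleotides to the coding ends before they are joined. In DP thymocytes this machinery rearranges the T cell receptor alpha locus, and Rag1, Rag2 and Dntt belong to the lymphocyte-restricted part of it while the end-joining genes are used by most cells.

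The 250 bases before the start of 5 of these genes are shown because the number of CpG dinucleotides, the DNA element that Cxxc1 binds, separates the lymphocyte-restricted genes from most end-joining genes. The windows are from RefSeq on GRCm38.p6, written in the orientation of the gene, 5' to 3', with each CG in capitals.
Dntt (chr19:41029025-41029274, plus strand): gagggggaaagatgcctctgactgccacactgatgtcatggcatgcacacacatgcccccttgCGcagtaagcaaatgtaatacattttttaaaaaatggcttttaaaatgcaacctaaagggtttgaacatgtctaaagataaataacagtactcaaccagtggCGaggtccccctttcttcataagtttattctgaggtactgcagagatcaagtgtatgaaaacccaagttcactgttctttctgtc
Rag1 (chr2:101649533-101649782, minus strand): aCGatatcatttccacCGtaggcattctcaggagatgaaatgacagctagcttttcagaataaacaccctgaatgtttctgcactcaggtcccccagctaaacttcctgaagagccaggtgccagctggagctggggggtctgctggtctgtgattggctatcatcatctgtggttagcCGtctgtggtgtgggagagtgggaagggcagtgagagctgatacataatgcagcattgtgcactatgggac
Rag2 (chr2:101624462-101624711, plus strand): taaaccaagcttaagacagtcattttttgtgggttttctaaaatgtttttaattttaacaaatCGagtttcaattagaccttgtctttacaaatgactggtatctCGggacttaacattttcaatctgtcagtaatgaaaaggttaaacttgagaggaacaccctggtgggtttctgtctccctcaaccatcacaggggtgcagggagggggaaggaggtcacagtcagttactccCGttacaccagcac
Xrcc5 (chr1:72307171-72307420, plus strand): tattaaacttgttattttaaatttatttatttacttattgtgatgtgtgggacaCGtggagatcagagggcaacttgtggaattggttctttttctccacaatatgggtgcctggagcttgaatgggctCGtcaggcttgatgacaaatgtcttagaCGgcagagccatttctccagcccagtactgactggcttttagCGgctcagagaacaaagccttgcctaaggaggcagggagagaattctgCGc
Xrcc6 (chr15:82016119-82016368, plus strand): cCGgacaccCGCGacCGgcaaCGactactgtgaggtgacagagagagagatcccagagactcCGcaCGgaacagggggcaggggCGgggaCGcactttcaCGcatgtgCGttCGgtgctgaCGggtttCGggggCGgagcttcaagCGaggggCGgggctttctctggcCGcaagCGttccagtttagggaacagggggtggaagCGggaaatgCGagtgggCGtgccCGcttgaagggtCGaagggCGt
The Dntt window holds 2 CG, and the Rag1 and Rag2 windows hold 3 each. The Xrcc5 window holds 5 and the Xrcc6 window 25. The Xrcc6 window lies before an internal start, inside the RefSeq span of the gene, which begins at 81987833. It also overlaps the span of Desi1, which ends at 82016258, and the start of the Xrcc6 span itself was not scored. The Dclre1c window ends at 3424130, inside the span of that gene, which begins at 3424061. The Xrcc5 window ends at 72307420, a few bases inside a span that begins at 72307417. Of the genes not shown, Dclre1c has 8, Nhej1 has 9, Xrcc4 has 26 and Lig4 has 27 at the first and 28 at the second of its 2 starts. The median over 32851 such windows of the mouse genome was 6, with quartiles at 2 and 16, and 49.6% of windows held at most 5. A window matched 9 of the 10 genes, Prkdc being the exception. The E-box letters CANNTG, which read the same on both strands, occur 3 times in the Dntt window, 3 times in that of Rag1 and once in that of Rag2, and 66.2% of all windows hold them. TGTGGT, searched on both strands, occurs 2 times in the Rag1 window and in none of the other members' windows, against 14% of all windows. CCAAT, also searched on both strands, occurs once in the windows of Rag1 and Xrcc5 and 3 times in that of Dclre1c, against 33.8% of all windows. Matches of different motifs may share letters, and a match describes the sequence only.

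Control libraries 1 and 2 held 12150508 and 34820446 counts, and KO libraries 1 and 2 held 36243182 and 33544428, so that control 1 held 34.9% of the counts of control 2. Cxxc1 itself, the check of the labels, stood at 110.7 and 53.5 library-size-normalised counts (CPM) in the controls against 35.7 and 39.4 CPM in the KO. The groups did not overlap, but the log2 fold change of -1.12 ± 0.34 (SE) missed the threshold (edgeR's quasi-likelihood test, adjusted p = 0.199). In its Cxxc1 level, control 2 lay nearer to both KO libraries than to control 1. Counts cover the whole gene, and the part that comes from exons outside the floxed part was not tested. The listed markers of DP cells were present in all 4 libraries, with Cd4 and Cd8a lower in the KO. Ptcra, also on that list though it does not mark DP cells alone, was higher in the KO. The list is given with the other cell markers below. CPM values here use library sizes scaled by TMM, a normalisation that assumes most genes to be unchanged.

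Of the 10 genes, 1 changed between genotypes: Dntt fell in the KO. The other 9 did not pass the test, with log2 fold changes from -0.68 for Rag1 to 0.86 for Xrcc5. The smallest log2 fold change called in any tested gene was 1.385 in size. Not passing therefore does not show that these 9 were unchanged. The median over the 10 was -0.21, against -0.04 over all 20389 tested genes. The threshold was an adjusted p of 0.05 (edgeR's quasi-likelihood test, Benjamini-Hochberg method over all tested genes), a rule that called 0.451% of tested genes in either direction and 0.181% as lower in the KO. Unadjusted p-values below 0.05 were found for 3 of the 10, Dntt, Rag1 and Xrcc5, and for 13.9% of all tested genes. In 6 of the 10 the genotypes did not overlap, 3 lower (Rag1, Dntt and Xrcc4) and 3 higher in the KO (Xrcc5, Xrcc6 and Prkdc). Over all tested genes the genotypes did not overlap in 46.8%, with 24.0% lower and 22.8% higher in the KO.

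**Figure D1:**
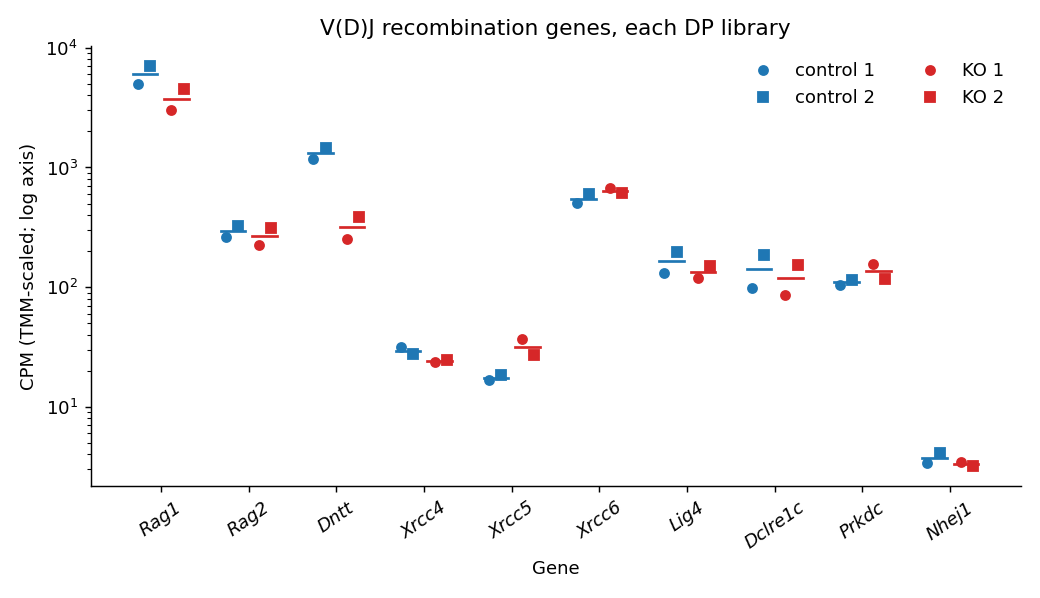
Level of each of the 10 genes in each library, in CPM on a log axis (blue, control; red, KO; circles, replicate 1; squares, replicate 2; horizontal lines, genotype means). The KO points of Dntt, 250.3 and 385 CPM, lie below its control points of 1172 and 1468 CPM, while the genotypes overlap for Rag2.

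Dntt, the terminal transferase gene (chromosome 19, 41029275 to 41059525), had 13942 and 50879 reads in the controls against 8722 and 13703 reads in the KO. These correspond to 1172 and 1468 CPM in the controls against 250.3 and 385 CPM in the KO. Both KO libraries were low and both control libraries high, and the gap between the genotypes was wider than the difference within either. The mean went from 1320 ± 209 CPM (SD, n = 2) to 318 ± 95.2 CPM, a 4.16-fold fall. The log2 fold change was -2.06 ± 0.28, with a 95% interval of -2.70 to -1.41 and an adjusted p of 0.025 by edgeR's test. Without KO replicate 1 the fold change was -1.74 and the call ended (adjusted p = 0.0858), while with the filter on low counts drawn again on those 3 libraries the call held at -1.73 (adjusted p = 0.000397). Over 14 alternatives the value stayed between -2.40 and -1.73. The smallest adjusted p in edgeR's test, 4.45e-22, came from the fit with the replicate number as a block, which called 1599 genes. The labels do not say what that number stands for. KO 1, without which the call ended, was the library with the lowest Dntt level.

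Rag1, the catalytic subunit gene of the recombinase (chromosome 2, 101638252 to 101649532), was the most abundant of the 10 and lay at the 99.97th percentile of tested genes in the controls. Its levels were 4967 and 7055 CPM in the controls against 2997 and 4488 CPM in the KO. All KO values were below all control values, but control 1 and KO 2 lay close together, and the higher library exceeded the lower by 1.42-fold within the controls and by 1.498-fold within the KO. The log2 fold change was -0.68 ± 0.30 (95% interval -1.36 to -0.005, adjusted p = 0.357 in edgeR's test), which did not pass the threshold. It ranged from -1.002 to -0.37 when 1 library was left out.

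Rag2, the partner subunit gene (chromosome 2, 101624712 to 101632528), lies beside Rag1 in the opposite orientation, with 5723 bases between the gene spans. Its levels were 264.7 and 322 CPM in the controls against 224 and 312 CPM in the KO. The genotypes overlapped, KO 2 being above control 1. The log2 fold change was -0.13 ± 0.25 (95% interval -0.69 to 0.43, adjusted p = 0.889 in edgeR's test), and its sign turned when control replicate 2 or KO replicate 1 was left out, at 0.02 and 0.12. The lower bound of this interval lies above the upper bound of that of Dntt. The Rag2 span shares 4320 bases with Iftap, a gene of the opposite strand listed in the tables as B230118H07Rik, and without a stated strand setting reads of the shared stretch cannot be assigned to one of them. Iftap itself had 23.1 and 48.6 CPM in the controls against 44.3 and 56.3 CPM in the KO, with a log2 fold change of 0.48 ± 0.36 (adjusted p = 0.625).

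Ratios of reads between 2 genes within a library do not depend on how libraries are scaled. There were 0.236 and 0.208 Dntt reads per Rag1 read in the controls, and 0.0835 and 0.0858 in the KO libraries. The 2 KO ratios were nearly equal and both were far below the control ratios, a difference of -1.39 in the mean log2 ratio (SD 0.13 in control and 0.03 in KO, n = 2 each). Rag1 reads per Rag2 read were 18.8 and 21.9 in the controls against 13.4 and 14.4 in the KO, a log2 difference of -0.55 with no overlap. The spread within a genotype was again smaller than the difference, with SDs of 0.16 and 0.08. Dntt reads per Rag2 read were 4.43 and 4.56 in the controls against 1.12 and 1.24 in the KO libraries. In the exact two-sided permutation test over the libraries each of 4 ratios had p = 0.333, also after Benjamini-Hochberg adjustment over the 4, which is the smallest p that 2 libraries against 2 allow. This exact test can therefore not pass 0.05 with 2 libraries a genotype.

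**Figure D2:**
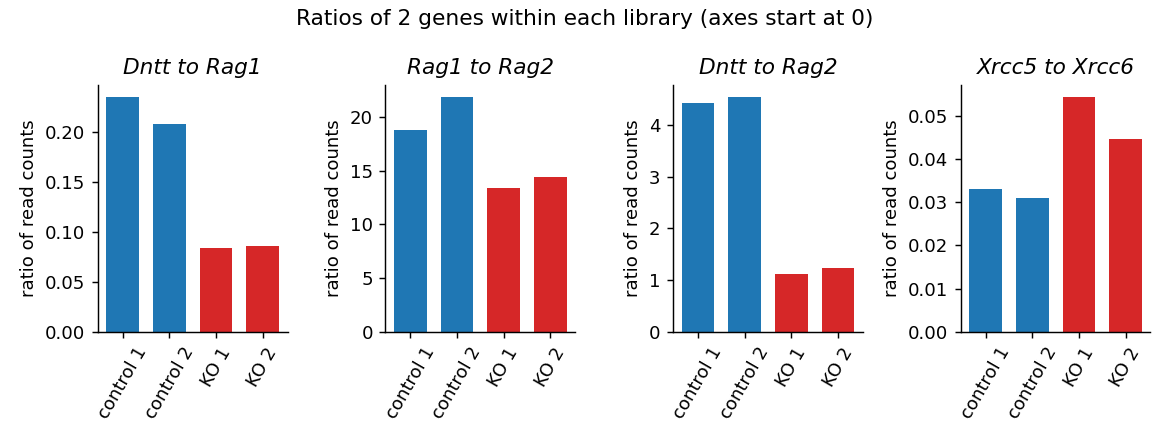
Ratio of the read counts of 2 genes in each library, 1 panel per pair, each axis starting at 0 (blue, control; red, KO). Dntt to Rag1 is 0.236 and 0.208 in the controls against 0.0835 and 0.0858 in the KO, and Xrcc5 to Xrcc6 is higher in both KO libraries.

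Among the end-binding genes, Xrcc5 and Xrcc6 encode the Ku80 and Ku70 subunits of 1 heterodimer. Xrcc5 (chromosome 1, 72307417 to 72394953) had 16.6 and 18.5 CPM in the controls against 36.5 and 27.3 CPM in the KO. Both KO values were above both control values, by a log2 fold change of 0.86 ± 0.31 (95% interval 0.15 to 1.57, adjusted p = 0.273 in edgeR's test), which did not pass the threshold under any of the 14 alternatives. Xrcc6 (chromosome 15, 81987833 to 82040085) had 501 and 595 CPM in the controls against 669 and 608 CPM in the KO. Its KO values were above the control values by a small margin, at 0.22 ± 0.23 (95% interval -0.29 to 0.73, adjusted p = 0.747). The RefSeq span of Xrcc6 contains Desi1, so reads of shared stretches may be split between them. Xrcc5 reads per Xrcc6 read were 0.0332 and 0.0311 in the controls against 0.0546 and 0.0448 in the KO, a log2 difference of 0.62 and one of the 4 ratios tested above. This ratio and that of Dntt to Rag2 were chosen after their values were seen.

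Prkdc, which encodes the catalytic subunit of the DNA-dependent protein kinase (chromosome 16, 15637444 to 15842239), had 103.9 and 115 CPM in the controls against 157 and 118 CPM in the KO. The genotypes did not overlap, but KO 2 lay next to control 2, and the log2 fold change was 0.33 ± 0.24 (95% interval -0.20 to 0.86). Dclre1c, the Artemis nuclease gene (chromosome 2, 3424061 to 3474211), had 99.1 and 186 CPM in the controls against 85.6 and 153 CPM in the KO. It was the member with the widest spread within a genotype, 1.88-fold in control and 1.78-fold in KO, and the genotypes overlapped (log2 fold change -0.26 ± 0.36). Its sign turned when control replicate 2 or KO replicate 1 was left out, at 0.27 and 0.13. The Dclre1c span shares 18397 bases with Suv39h2. Adjusted p-values of Prkdc and Dclre1c were 0.607 and 0.826 in edgeR's test.

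The ligation genes were measured at very different depths. Lig4, the DNA ligase IV gene (chromosome 8, 9970020 to 9977680), had 130.9 and 198 CPM in the controls against 119 and 151 CPM in the KO, with overlapping genotypes and a log2 fold change of -0.29 ± 0.26 (95% interval -0.88 to 0.31). Its sign turned without control replicate 2, at 0.04. Xrcc4, which encodes the partner that stabilises ligase IV (chromosome 13, 89848914 to 90089608), had 31.5 and 27.5 CPM in the controls against 23.8 and 24.6 CPM in the KO. Its genotypes did not overlap, and the log2 fold change was -0.28 ± 0.29 (95% interval -0.94 to 0.37). Nhej1, the XLF gene (chromosome 1, 74967346 to 75125226), had 40 and 142 reads in the controls against 121 and 114 in the KO, or 3.363, 4.10, 3.47 and 3.20 CPM in the same order. With so few reads its interval was the widest of the 10, from -1.62 to 1.30 around -0.16. A log2 change of 1 in either direction would not have been detectable. That limit is not particular to Nhej1, since only 8% of simulated 2-fold changes in genes of at least 5 CPM were recovered. Adjusted p-values of Lig4, Xrcc4 and Nhej1 were 0.710, 0.745 and 0.951 in edgeR's test.

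**Figure D3:**
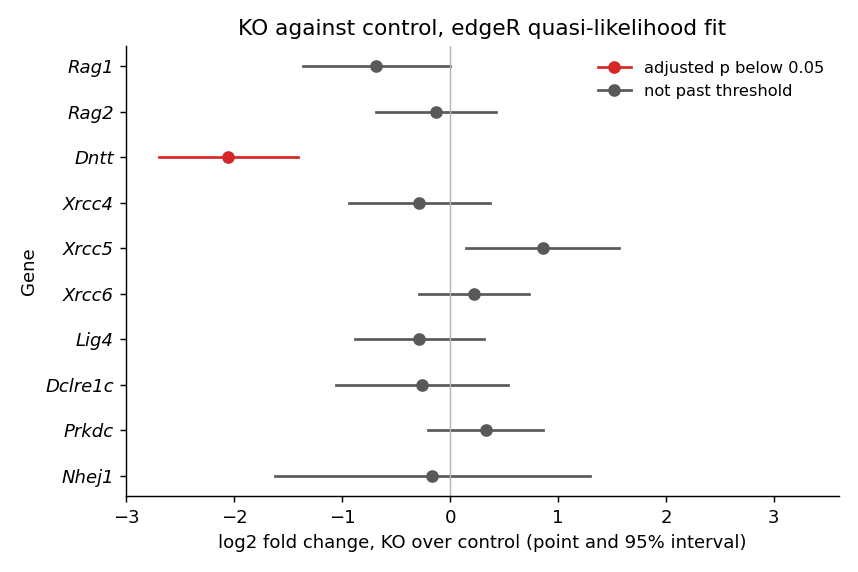
Log2 fold change of each gene, KO over control, with its 95% interval from the edgeR fit (red, adjusted p below 0.05; grey, not past the threshold). The interval of Dntt runs from -2.70 to -1.41, and those of Rag1 and Xrcc5 exclude 0 without passing the adjusted threshold.

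To compare levels between genes, CPM were divided by the length of each gene's merged exons in kilobases (GENCODE M21). On this scale the control means ran from 909.6 CPM per kb for Rag1 and 576 for Dntt through 122 for Xrcc6, 85.7 for Rag2, 31.6 for Lig4 and 15.3 for Dclre1c to 8.30 for Prkdc, 7.01 for Xrcc4, 6.88 for Xrcc5 and 3.34 for Nhej1. In the controls only Xrcc4 and Xrcc5 overlapped among neighbours in this order. The order shifted in the KO libraries, where Dntt, with 109 and 168 CPM per kb, overlapped Xrcc6, with 149.5 and 135.9 CPM per kb. Rag1 remained first at 454 and 679 CPM per kb. Xrcc5, at 14.3 and 10.7 CPM per kb, overlapped Dclre1c at 9.19 and 16.4 CPM per kb and no longer overlapped Xrcc4 at 5.65 and 5.84 CPM per kb. Prkdc, at 11.9 and 8.94 CPM per kb in the KO, overlapped both Xrcc5 and Dclre1c. Merged exons of all annotated transcripts can be longer than the transcripts expressed here, which lowers these values.

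The other genes around the pathway were taken in 6 lists, of which 53 genes were tested. None was called by edgeR's quasi-likelihood test, and 8 had an unadjusted p below 0.05 (4 higher and 4 lower in the KO), against 13.9% of all tested genes. DESeq2 called 3 of the 53, against 947 of all 20389 tested genes in either direction. These 3 were all lower and all in the list of transcriptional regulators reported to act on Rag or Dntt expression, an action not tested here. That list had 14 tested genes, a median log2 fold change of -0.23 and 7 genes with both KO libraries below both controls, against 0 above (24.0% and 22.8% of all tested genes). Satb1, a chromatin organiser gene of T-lineage cells, had 3620 and 4604 CPM in the controls against 1535 and 2280 CPM in the KO. Its groups did not overlap, at -1.11 ± 0.28 (adjusted p = 0.138 in edgeR's test and 0.00119 in DESeq2). Bcl11b, a T-lineage commitment factor gene, had 1604 and 1710 CPM in the controls against 1328 and 1425 CPM in the KO (-0.27 ± 0.23). The forkhead factor gene Foxo1, named after its values were seen, was also called by DESeq2. Foxo1 had 101.6 and 89.1 CPM in the controls against 54.4 and 46.3 CPM in the KO, with an adjusted p of 0.134 in edgeR's test. The E-protein gene Tcf12, also named after its values were seen, had 562 and 631 CPM in the controls against 602 and 622 CPM in the KO.

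No gene of break signalling or of other repair routes passed the test. Of 12 tested genes that sense or signal breaks 0 were called by edgeR and 0 by DESeq2, with 2 at an unadjusted p below 0.05 and a median log2 fold change of 0.41. The genotypes overlapped in 8 of the 12, and 4 had both KO libraries above both controls, against 22.8% of all tested genes. Their summed level was 1539 and 1346 CPM in the controls against 2091 and 1339 CPM in the KO, where only KO 1 stood high. Rif1, which protects broken ends, had 366 and 341 CPM in the controls against 595 and 340.4 CPM in the KO, so that KO 1 alone stood high. H2afx, the gene of the histone variant phosphorylated around breaks, had 462 and 234 CPM in the controls against 332 and 205.5 CPM in the KO, with overlapping groups. Of 8 alternative end-joining genes 0 were called by edgeR and 0 by DESeq2, 2 had an unadjusted p below 0.05, and the log2 fold changes lay between 0.30 and 0.71 with a median of 0.45. The genotypes overlapped in 5 of the 8, and 3 had both KO libraries above both controls. The summed level was 683 and 508 CPM in the controls against 1084 and 620 CPM in the KO, so that KO 2 lay between the controls. Lig1, a replication ligase gene, had 197.5 and 145 CPM in the controls against 353 and 148 CPM in the KO, and Parp1, whose product binds DNA breaks, had 119 ± 24.98 CPM in control and 194 ± 72.4 CPM in KO (SD, n = 2).

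Accessory end-joining genes numbered 9 tested, with 0 called by edgeR and 0 by DESeq2, 1 at an unadjusted p below 0.05 and a median log2 fold change of 0.21. The RecQ helicase gene Wrn had 139 and 133 CPM in the controls against 168 and 154 CPM in the KO, and Tdp2, which removes topoisomerase adducts from ends, had 28.9 and 35.6 CPM against 42.1 and 43.1 CPM. Both stood above the controls in both KO libraries without passing the test (adjusted p = 0.690 and 0.576 in edgeR's test). Of the 8 cofactor and turnover genes of the RAG proteins 0 were called by edgeR and 0 by DESeq2, with 0 at an unadjusted p below 0.05. Hmgb2 and Hmgb1, DNA-bending proteins that aid RAG binding, had log2 fold changes of -0.31 ± 0.35 and -0.07 ± 0.23. Traf6, a signalling ubiquitin ligase gene on the far side of Rag1, had 102.2 and 91.9 CPM in the controls against 114.7 and 113.9 CPM in the KO (0.24 ± 0.22), and with Iftap it made up the 2 neighbours of the Rag genes, of which 0 were called by edgeR or DESeq2 and 0 had an unadjusted p below 0.05.

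**Figure D4:**
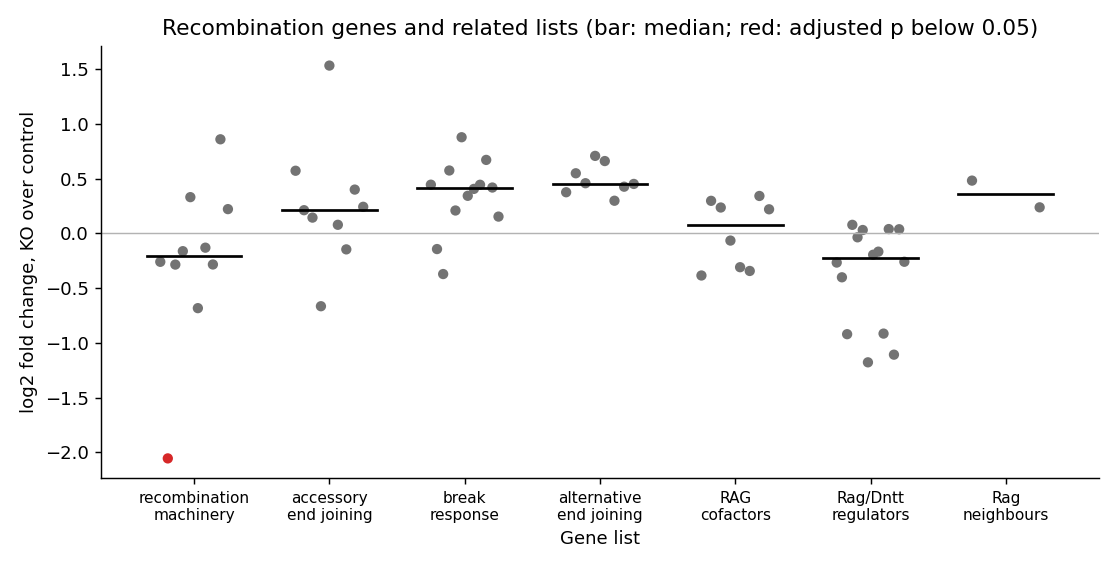
Log2 fold change, KO over control, of each tested gene in the recombination set and in 6 related lists (1 point per gene; bars, list medians; red, adjusted p below 0.05). Dntt, at -2.06, is the only red point. The alternative end-joining genes lie between 0.30 and 0.71, with genotypes that overlap in 5 of 8.

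Other measures moved with the genotypes beside Dntt. In bulk samples fewer cells of a type and less RNA per cell cannot be told apart. Over 7 DP markers, 2 fell in edgeR's test (Cd4 and Cd8a) and 5 were not called, against 0.181% of all tested genes called lower. Of the same 7, DESeq2 called 4 lower and 1 higher, against 947 of all 20389 tested genes in either direction. The summed level was 4420 and 5429 CPM in the controls against 1540 and 2375 CPM in the KO. Ptcra, which encodes the pre-T cell receptor alpha chain and does not mark DP cells alone, was higher in the KO. It had 13.5 and 4.27 CPM in the controls against 49.9 and 26.5 CPM in the KO (log2 fold change 2.13 ± 0.55, adjusted p = 0.138 in edgeR's test). Of the 8 markers of earlier thymocytes given next, 6 likewise had both KO libraries above both controls, and 1 had both below. Over all tested genes these shares were 22.8% and 24.0%. Cd24a and Cd3e overlapped between genotypes, at -0.16 and -0.19. Over 8 markers of earlier thymocytes, 4 rose in edgeR's test (Il2ra, Il7r, Dtx1 and Notch3) and 4 were not called, against 0.270% of all tested genes called higher. DESeq2 called 6 of these 8 higher and 1 lower, against 947 of all 20389 tested genes in either direction. The sum was 820.4 and 526 CPM against 3183 and 1578 CPM. Cd44, an adhesion receptor gene of the same list, was lower in both KO libraries, with 32.8 ± 3.43 CPM in control against 13.3 ± 2.37 CPM in KO (SD, n = 2 each; log2 fold change -1.30 ± 0.32, adjusted p = 0.124 in edgeR's test), and Kit overlapped between genotypes. Ptcra, Cd24a, Cd3e, Cd44 and Kit were named after their values were seen. The part of these shifts in the fall of Dntt was not tested. Markers of B-lineage cells, which also use Rag1, Rag2 and Dntt at an early stage, summed to 18.2 and 10.5 CPM in the controls against 16.4 and 14.5 CPM in the KO. Myeloid markers summed to 21.6 to 54.7 CPM, epithelial and mesenchymal markers to 9.50 to 18.9 CPM, and erythroid markers to 8.66 and 14.02 CPM in the controls against 38.0 and 26.2 CPM in the KO. Within the epithelial markers, also named after their values were seen, Epcam had 1.09 and 4.88 CPM in the controls against 11.6 and 15.1 CPM in the KO, while Psmb11 had 1.18 and 1.39 CPM against 0.0574 and 0 CPM and Foxn1 had 1.60 and 1.15 CPM against 0.172 and 0.0562 CPM. None of these 3 was called by edgeR's test (adjusted p = 0.210, 0.306 and 0.393), and DESeq2 called 1 of the list, as higher. Of the erythroid markers Hba-a1 rose, from 0 reads in both controls to 14.55 and 6.49 CPM, and Hba-a2, Hbb-bs and Hbb-bt were also at 0 in both controls. Of 17 S-phase and mitosis genes 0 were called by edgeR and 0 by DESeq2, with 0 at an unadjusted p below 0.05. Their summed level was 6250 and 4679 CPM in the controls against 6023 and 4094 CPM in the KO, so that the genotypes overlapped. Mki67 and Top2a, which had the highest levels, had log2 fold changes of -0.29 ± 0.26 and -0.49 ± 0.27. The S-phase genes Mcm2 to Mcm7, named after their values were seen, went the other way, from 0.33 to 0.60. Each of these Mcm genes overlapped between genotypes, and all other genes of the list had negative values.

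The genes whose levels over the 4 libraries most resembled those of Dntt were Gtf2h4, which encodes a subunit of the general transcription factor TFIIH, the coreceptor gene Cd8a and Cd5, a surface regulator of T cell receptor signals. Likeness was the root mean square distance between log2 CPM values centred on each gene's mean, over 4108 genes of at least 50 CPM, and was 0.06, 0.12 and 0.14. Gtf2h4 had 94.8 and 107 CPM in the controls against 20.2 and 30.8 CPM in the KO. Nearest to Rag1 were Arhgef11, Tnik and Atp1b1, at 0.03, 0.04 and 0.04, and nearest to Rag2 were Icam2, Ptpre and Atp6v1d, at 0.01, 0.03 and 0.03. With 4 libraries such distances describe these samples only.

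Set beside the promoter sequences printed above, the 3 members with an unadjusted p below 0.05 (Dntt, Rag1 and Xrcc5) were among the 4 whose window held at most 5 CG, Rag2 being the other. The 2 with the lowest p, Dntt and Xrcc5, differed in direction. The 5 members with 8 or more CG had log2 fold changes between -0.29 and 0.22. The comparison was chosen after the values were seen, covers 9 genes and has no test.

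**Figure D5:**
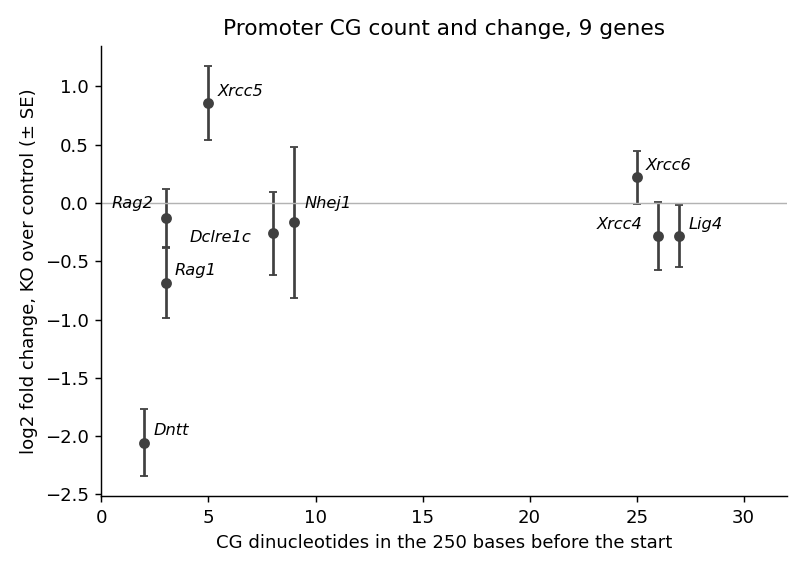
Number of CG dinucleotides in the 250 bases before the start of 9 genes against the log2 fold change, KO over control, with its standard error. For Lig4 the first start was used, and for Xrcc6, Dclre1c and Xrcc5 the start lies inside the RefSeq span. Dntt, with 2 CG, lies at -2.06, and the genes with 8 or more CG lie between -0.29 and 0.22.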

How the data were processed

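Gene counts of 4 DP libraries (2 control, 2 KO, grouped by sample title) were analysed. The values deposited by the authors are raw counts per gene symbol, and per the labels' protocols the libraries were made from 10 ng of total RNA with a SMART-seq Standard kit, which amplifies cDNA by PCR. The mm10 genome, featureCounts 2.0.8, HISAT2 2.2.1, cutadapt 4.0 and edgeR 3.36.0 appear without role or order in the submitters' processing notes. The strand setting and the handling of multiply mapped reads were not given in the sources used here. Reads without molecular identifiers are not independent molecules.

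Counts were fitted in R 4.3.3 with edgeR 4.0.16: filterByExpr (minimum count 10, minimum total 15), TMM, and the quasi-likelihood test with genotype as the only term, adjusted over 20389 genes at 0.05. Residual degrees of freedom were 2. Intervals are 95% and use the standard error, the fold change divided by the root of F. DESeq2 1.42.0 was an alternative. A count of 3 reads corresponded to 0.252, 0.0866, 0.0861 and 0.0843 CPM in control 1, control 2, KO 1 and KO 2. The tests were also checked on simulated counts, with changes placed in genes of at least 5 CPM. There 8% of 2-fold and 98% of 4-fold changes were recovered, and 7.27% of calls were false. The members and lists were chosen with earlier results of these data known. All 10 members are named. In other lists the called genes, or else the 2 of highest CPM, are named, and the text marks genes chosen outside this rule. Values of some single genes of these lists are not reported here. Older symbols were matched through RefSeq synonyms. Paxx had no matching row, and 1 symbol listed as a Rag neighbour belonged to a gene elsewhere and was not used. Positions are those of RefSeq genes on GRCm38.p6 (mm10).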

Additional observations from a re-analysis of the deposited data

How the results depend on the processing

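Alternatives numbered 10 planned and 4 added after the data were seen, the added ones drawing the low-count filter again after a library was left out. Genes changed numbered 92, and 947 with DESeq2, 920 with no filter on low counts, 228 at a minimum of 5 CPM and 9 to 619 when 1 library was left out, the lowest without KO replicate 1. With the filter drawn again the counts were 864, 805, 223 and 384 without control 1, control 2, KO 1 and KO 2. Members changed numbered 1, and 0 to 1 when 1 library was left out, Dntt losing its call without KO replicate 1. Genes changed in the related lists numbered 0, and 3 with DESeq2, 3 with no filter on low counts, 0 to 1 when 1 library was left out, and 1, 1 and 2 without control 1, control 2 and KO 2 with the filter drawn again. With 1 library left out the log2 fold changes of Rag2, Lig4 and Dclre1c ranged from -0.39 to 0.12, -0.55 to 0.044 and -0.74 to 0.27. With the filter drawn again they turned to 0.026 (Rag2), 0.052 (Lig4) and 0.27 (Dclre1c) without control replicate 2, and to 0.14 (Rag2) and 0.15 (Dclre1c) without KO replicate 1. In these fits the lone library is assumed to vary like the other genotype. The Dntt to Rag1 and Rag1 to Rag2 log2 ratio differences ranged from -1.48 to -1.30 and from -0.66 to -0.44. Other members kept their sign, and Nhej1 was not kept at a minimum of 5 CPM. The cause of these shifts was not tested.

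With the replicate number as a block, 1599 genes were called, 2 members (Dntt, and Rag1 at -0.69 with an adjusted p of 0.00512 in edgeR's test) and 4 genes of the related lists. Same-numbered libraries of the 2 genotypes deviated together over 11018 genes (r = 0.27), but the labels do not say what the number stands for, and whether it marks a shared source was not tested.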

Other observations

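Tested genes of at least 10 CPM with a RefSeq start window were classed by the highest CG count over the windows of all their starts. The window share given above counts every window instead. By this rule 641 genes had 0 to 5 CG in the 250 bases before a start. Of these 11 were called higher and 9 lower in the KO, 3.12% in all. Of 2144 genes with 6 to 15 CG, 15 were higher and 6 lower, or 0.979%. Of 4191 genes with over 15 CG, 9 were higher and 11 lower, or 0.477%. Median log2 fold changes were 0.00098, 0.13 and 0.04. These classes were set after the data were seen and the shares were not tested. Dntt is one of the 9 lower genes with few CG.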
